A study of Homo sapiens with 8 samples.

Results

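Flag-actin occupancy was described from 3 peak lists of HCT-116, an established line from a human colorectal carcinoma, made by CUT&RUN, an assay in which an antibody brings a nuclease to its target and the DNA cut free is sequenced. One list came from control cells with SETD3 and 2 came from SETD3 knockout (KO) cells, named KO1 and KO2; in all 3 the antibody was against Flag-tagged wild type actin. Peaks on chromosomes 1 to 22 and X were kept if they overlapped neither of the 2 IgG lists of control cells by 1 bp or more. This left 56027 peaks of the 105140 in the 3 lists, and of 263613 in all 8 lists of the series: 25460 in the control list, 12105 in KO1 and 18462 in KO2. The other lists are BRG1 in the same cell types and the IgG libraries, one of which, in the Flag arm, carries the word Empty in its title. The sources do not say how the Flag-actin was expressed, whether the KO numbers are separate clones or separate cultures, or whether the Flag arm IgG cells carried the construct. With 1 control library and 2 KO libraries, no difference was tested, and the only measure of spread is the gap between KO1 and KO2.

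Actin is best known as the protein of cytoplasmic filaments, but it also enters the nucleus, where it is a subunit of chromatin remodelling complexes and has been linked to transcription by RNA polymerases. SETD3 methylates a histidine of actin and is known for its effect on filament assembly. A Flag-actin peak is a stretch of DNA recovered near tagged actin or near a complex that holds it. A peak shows neither direct contact of actin with DNA nor a change in expression of a nearby gene.

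The promoter sequences printed here are examples picked by rank, and they do not show what sets the lists apart. The windows run from 250 bases before to 50 bases after a transcription start and are RefSeq sequences of GRCh38.p14, printed 5′ to 3′ on the strand of the gene. Capitals mark the GC box, GGGCGG or its reverse complement CCGCCC, a binding motif of SP-family factors. The windows printed were chosen by the rank of the peak over them: 2 of the highest among those held by the control alone, 1 held by both KO lists and not the control, and 1 held by all 3 lists. RNF166 encodes a RING-type ubiquitin ligase and RASGRF2 an exchange factor of small GTPases; IQGAP1 encodes a scaffold protein that binds actin filaments.
RNF166, control alone, chr16:88703532-88703831, minus strand: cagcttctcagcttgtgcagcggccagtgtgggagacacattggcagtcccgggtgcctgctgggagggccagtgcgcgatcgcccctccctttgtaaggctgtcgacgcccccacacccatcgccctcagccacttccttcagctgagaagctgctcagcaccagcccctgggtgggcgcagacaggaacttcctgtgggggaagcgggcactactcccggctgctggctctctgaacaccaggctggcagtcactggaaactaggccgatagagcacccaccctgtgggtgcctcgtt
RASGRF2, control alone, chr5:80960113-80960412, plus strand: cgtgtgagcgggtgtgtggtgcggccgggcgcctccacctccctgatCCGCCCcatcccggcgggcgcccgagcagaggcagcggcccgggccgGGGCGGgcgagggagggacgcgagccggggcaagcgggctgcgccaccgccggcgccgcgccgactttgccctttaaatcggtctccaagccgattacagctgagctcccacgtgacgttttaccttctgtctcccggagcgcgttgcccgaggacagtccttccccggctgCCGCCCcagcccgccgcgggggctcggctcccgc
TMEM44, both KO lists, chr3:194633370-194633669, minus strand: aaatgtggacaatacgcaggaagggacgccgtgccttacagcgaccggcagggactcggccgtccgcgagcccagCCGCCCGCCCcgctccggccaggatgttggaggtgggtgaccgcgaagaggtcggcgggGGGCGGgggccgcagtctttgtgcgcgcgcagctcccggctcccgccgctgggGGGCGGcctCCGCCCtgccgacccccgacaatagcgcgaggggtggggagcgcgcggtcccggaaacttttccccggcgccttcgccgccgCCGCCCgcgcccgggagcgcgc
IQGAP1, all 3 lists, chr15:90387992-90388291, plus strand: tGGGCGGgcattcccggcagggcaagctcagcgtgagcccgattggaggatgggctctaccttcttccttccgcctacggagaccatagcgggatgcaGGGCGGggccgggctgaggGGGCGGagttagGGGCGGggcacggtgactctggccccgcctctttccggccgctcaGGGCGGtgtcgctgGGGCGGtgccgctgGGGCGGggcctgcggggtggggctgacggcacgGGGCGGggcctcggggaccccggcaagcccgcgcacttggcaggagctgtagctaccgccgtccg

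The 4 windows differ in composition and in the peak over them. Composition is that of the whole window of 300 bases, of which a peak may cover only part. A marked motif therefore need not lie under the peak. RNF166 had 64.3% G and C with 0 GC boxes, under a control peak of 770 bp. RASGRF2 had 74.7% with 3 GC boxes, under a control peak of 850 bp. TMEM44 had 76.0% with 6 GC boxes, under a KO1 peak of 30 bp and a KO2 peak of 200 bp. IQGAP1 had 74.0% with 8 GC boxes, and its peaks were 90, 30 and 60 bp wide in control, KO1 and KO2.

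Over all 22132 promoter windows of 15812 protein-coding genes, the lists lay over windows of high GC content. The control lay over 592 windows with a median GC content of 68.0%, KO1 over 159 with 66.0% and KO2 over 339 with 67.7%, against 62.3% over all windows and 64.3% over the 107 windows under Flag arm IgG peaks. The GC box, searched on both strands, was in 66.7%, 66.7% and 69.6% of the windows under control, KO1 and KO2 peaks and in 56.3% of all windows. The 3 lists were alike in this motif. It was in 66.3% of windows under the control alone and in 67.8% of windows under either KO list and not the control. The ETS motif CCGGAAG was in 12.8%, 20.1% and 15.6%, against 12.8% of all windows, and 32 windows make up the KO1 share. A TATA element, TATAAA, was in 6.25%, 5.03% and 5.90%, against 9.46%. The AP-1 motif TGANTCA was in 5.91%, 8.18% and 5.90%, against 6.15%, and the telomere repeat unit TTAGGG was in 6.25%, 8.18% and 5.31%, against 8.83%. Each motif was searched on both strands, none contains another, and a match is a match of letters only. It may lie anywhere in the window, under the peak or not. Just 3 windows lay under both KO lists and not the control, and 3 under all 3 lists.

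The libraries differed in ways that bear on every comparison. The IgG filter took 34.3% of the control peaks, 55.3% of KO1 and 48.3% of KO2. The deposited maximum signal of a peak came in whole steps, of 21.5 in the control list, 9.69 in KO1 and 8.40 in KO2, and a kept peak reached a median of 10, 7 and 8 steps. What 1 step stands for and how the signal was scaled are not given in the sources used here, so total signal was used only to rank peaks within a list. The lists were also compared at equal length, the 12105 peaks of highest total signal in each. Total signal adds up over the width of a peak. The cut left KO1 whole and kept wider peaks of the control, with a median of 320 bp against 280 bp before it. Equal length therefore does not separate list length from width. Intervals given below are 95% Wilson intervals and cover counting error only, since the peaks of a list share 1 library.

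Control Flag-actin peaks lay closer to genes than KO peaks did. A gene end, meaning the 1 kb on each side of a protein-coding gene's annotated start or end, held 12.2% of control peaks (interval 11.8 to 12.6), 6.26% of KO1 peaks (5.84 to 6.71) and 8.46% of KO2 peaks (8.07 to 8.87). The KO mean was 7.36% ± 1.55 (SD, n = 2), a difference from the control of -4.80 percentage points, while the KO lists lay 2.20 points apart. Both KO lists were above the Flag arm IgG list, at 3.88%. They were also above genome positions, taken every 1 kb between the outermost listed genes of each chromosome, at 2.40%. Inside genes but away from their ends lay 55.7% of control peaks, 49.0% of KO1 and 50.7% of KO2, against 46.7% for IgG. More than 50 kb from any gene lay 13.7% of control peaks, 24.97% of KO1 and 21.1% of KO2, against 28.1% for IgG and 38.5% of genome positions. The zone outside genes but within 50 kb held nearly the same share of each list, at 18.5%, 19.8% and 19.7%. In each class with a difference, KO2 stood between the control and KO1.

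At equal length, with the control list cut to its higher-ranked and wider peaks, the gaps were as large or larger. The gene-end share was then 13.4% in the control list, 6.26% in KO1 and 8.67% in KO2, and the share more than 50 kb from a gene was 11.8%, 24.97% and 20.5%. The KO list positions overlapped little with those of the control, so the shares describe different peaks and not the movement of the same ones.

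**Figure D1:**
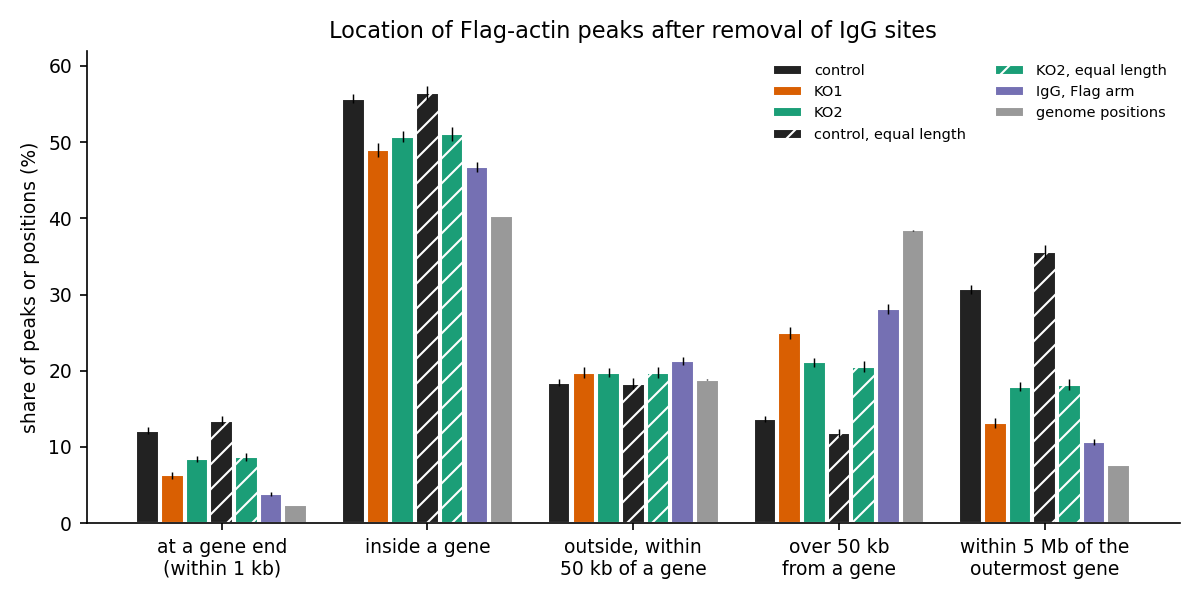
Share of Flag-actin peaks in each location class, in percent, for control, KO1 and KO2 as filtered. Control and KO2 are also shown at equal length (hatched), where KO1 is unchanged. The Flag arm IgG list and genome positions every 1 kb stand beside them. Bars start at 0, and error bars are 95% Wilson intervals. As filtered, the control is the highest of the 3 lists at gene ends (12.2%) and within 5 Mb of the outermost gene (30.7%). It is the lowest of the 3 beyond 50 kb (13.7%).

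The largest difference in place was toward the ends of chromosomes. Within 5 Mb of the outermost annotated gene of a chromosome lay 30.7% of control peaks, 13.1% of KO1 and 17.9% of KO2, against 10.6% for Flag arm IgG and 7.60% of genome positions. Within 1 Mb these shares were 7.60%, 2.86% and 4.33%, against 2.28% and 1.52%. The control share exceeded the KO shares in each band out to 10 Mb. From 5 to 10 Mb it was 11.6%, against 9.72% and 10.5%, and from 20 to 50 Mb it was 28.0%, against 36.8% and 34.4%. With the outer 5 Mb left out, a choice made after seeing the data, the difference of the KO mean from the control at gene ends was -5.43 points. The outermost genes were the lowest start and highest end listed for each chromosome, and these were not checked. On chromosome 22, for example, the lowest start lay near the first base, since a control peak starting at 20360521 was 20.4 Mb from it. Stretches without genes there count as outer zone, annotated span and genome positions, so the shares of genome positions are approximate.

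By chromosome, the control stood farthest above the KO lists on 17, 16, 19 and 21. Chromosome 17 held 11.1% of control peaks, 5.74% of KO1 and 7.39% of KO2, while it makes up 2.75% of the annotated span, and it held 3.90% of Flag arm IgG peaks. Chromosome 16 held 7.33%, 4.39% and 5.45%, with 2.98% of the span and 3.90% of IgG peaks. Chromosome 19, the most gene-dense, held 5.38%, 3.24% and 3.59%, and chromosome 21 held 3.03%, 1.04% and 1.32%. Chromosomes 8 and 10 held above their span share in all 3 lists alike, with 6.52%, 6.52% and 6.40% for chromosome 8. Chromosome X was low in every list, at 0.393% in the control list, 1.70% in KO1 and 1.09% in KO2, against 5.15% of the span and 3.17% of IgG peaks. On X both KO lists also held more peaks than the control, 206 and 202 against 100, and KO2 alone did so on chromosomes 3 (971 against 927) and 4 (742 against 712). HCT-116 is known to carry extra copies of parts of chromosomes 8, 10, 16 and 17; copy number was not measured in these files and its part in the result was not tested. Without chromosomes 8, 16 and 17, also left out after seeing the data, the difference of the KO mean from the control within 5 Mb of the outermost genes was -12.6 points, against -15.2 points with them.

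**Figure D2:**
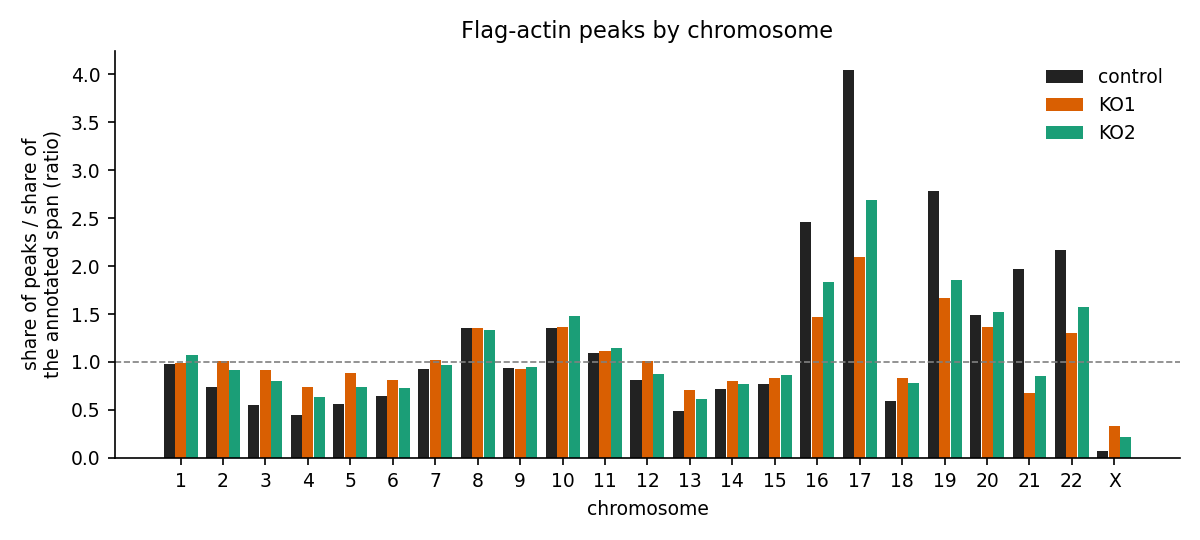
Share of the kept Flag-actin peaks on each chromosome divided by that chromosome's share of the annotated span (ratio, no unit), for control, KO1 and KO2; the dashed line is a ratio of 1. Chromosome 17 stands at 4.05 in the control list, 2.09 in KO1 and 2.69 in KO2, and X is the lowest in each list. The span runs from the lowest gene start to the highest gene end listed, and on chromosome 22 it begins near the first base.

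Control peaks were also packed together. Of 3040 windows of 1 Mb, the fullest 10% for each list held 53.6% of control peaks, 29.4% of KO1 and 35.3% of KO2. At equal length these were 60.4%, 29.4% and 37.1%. The control left 600 windows with no peak although its list was the longest, and KO1 left 377 and KO2 318. The nearest other peak of the same list lay at a median of 8.80 kb in the control list, 60.9 kb in KO1 and 31.5 kb in KO2, and 39.4%, 7.72% and 16.2% of peaks had such a neighbour within 5 kb. At equal length 32.1%, 7.72% and 12.02% had one.

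The 10 windows with the most control peaks lay on chromosomes 8, 16 and 17 toward the ends of their long arms. They held 7.74% of control peaks, 2.21% of KO1 and 3.59% of KO2, and 1.03% of Flag arm IgG peaks. The fullest, chromosome 17 from 81 to 82 Mb, held 300 control, 32 KO1 and 80 KO2 peaks, and 33 of its 37 genes had a gene-end peak in the control list, 6 in KO1 and 13 in KO2. That window holds ACTG1, the gene of gamma-cytoplasmic actin, and GCGR, the glucagon receptor gene. Chromosome 16 from 88 to 89 Mb held 275, 31 and 77 peaks around ZFPM1, a GATA cofactor gene, and CBFA2T3, a corepressor gene. In the next megabase, with RPL13 and TUBB3, the counts were 207, 35 and 69. Chromosome 8 from 144 to 145 Mb, around TONSL and CYC1, held 193, 23 and 67. In each of the 10 windows the control count was the highest, KO2 next and KO1 lowest; the windows were chosen by the control count, so that order is a description.

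Gene density around the peaks followed the same order. A control peak had a median of 12 protein-coding genes within 500 kb of its centre, a KO1 peak 7 and a KO2 peak 8, against 6 for Flag arm IgG and 5 for genome positions. Surroundings with 20 or more genes held 28.5% of control peaks, 14.1% of KO1 and 18.2% of KO2. No gene at all was within 500 kb of 1.36%, 4.06% and 3.12%. At equal length the medians were 13, 7 and 8.

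**Figure D3:**
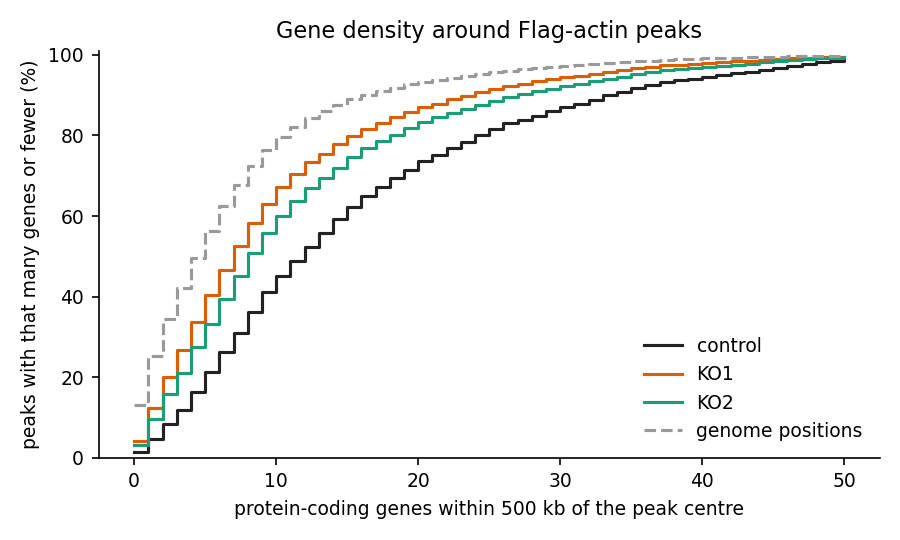
Cumulative share of Flag-actin peaks (percent) by the number of protein-coding genes within 500 kb of the peak centre, for control, KO1, KO2 and genome positions every 1 kb (dashed). The control line lies to the right of both KO lines, with medians of 12, 7 and 8 genes, and genome positions lie to the left with 5.

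KO peaks were narrower. The median width was 280 bp in the control list, 90 bp in KO1 and 140 bp in KO2, with the middle 80% of peaks from 160 to 430 bp, from 50 to 160 bp and from 90 to 230 bp. Peaks wider than 100 bp made up 97.3%, 33.6% and 75.6%. The control held 3363 peaks over 400 bp, KO2 held 34 and KO1 held 0. At equal length the medians were 320, 90 and 150 bp. The kept peaks covered 7.38 Mb in the control list, 1.23 Mb in KO1 and 2.75 Mb in KO2.

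In the classes of middle width the lists stood closer together. From over 200 to 400 bp, the gene-end share was 12.5% of 16535 control peaks (interval 11.98 to 12.99), 10.95% of 210 KO1 peaks (7.41 to 15.9) and 11.4% of 3285 KO2 peaks (10.3 to 12.5), and the median density was 12, 11 and 11 genes. The KO mean differed from the control at gene ends by -1.32 points there, a width class set apart after seeing the data, against -4.80 points over all widths. From over 100 to 200 bp the gene-end share was 9.37%, 8.06% and 8.62%, and the density 10, 8 and 8. The class over 50 to 100 bp held 251 control peaks (0.986% of that list), 6669 KO1 peaks (55.1%) and 3395 KO2 peaks (18.4%). Its gene-end share was 6.77% (interval 4.27 to 10.6), 5.55% (5.02 to 6.12) and 6.39% (5.62 to 7.26). The median density there was 7 genes in each list. In the outer classes the order at gene ends was another: up to 50 bp it was 2.59% of 425 control peaks (interval 1.45 to 4.57), 3.95% of KO1 (3.04 to 5.11) and 4.17% of KO2 (3.14 to 5.51), and over 400 bp 16.3% of control peaks and 23.5% of the 34 KO2 peaks (12.4 to 40.0). The share within 5 Mb of the outermost genes kept more of its gap in the classes from over 100 to 400 bp. It was 31.0%, 22.9% and 24.8% from over 200 to 400 bp, and 23.0%, 15.6% and 18.1% from over 100 to 200 bp. By peak height, with the scale of a step unknown, the gap varied. Among peaks with a maximum over 7 and up to 10 steps, the gene-end share was 12.3%, 5.98% and 8.34%, and the median widths were 290, 90 and 130 bp. Over 20 steps it was 6.16% (interval 4.99 to 7.60), 4.31% (2.78 to 6.63) and 4.98% (4.00 to 6.18), and up to 5 steps, in 200, 462 and 548 peaks, 13.0%, 9.09% and 12.2%. Width and location thus moved together, within each list as well as between the lists, and the part of either in the other was not tested.

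**Figure D4:**
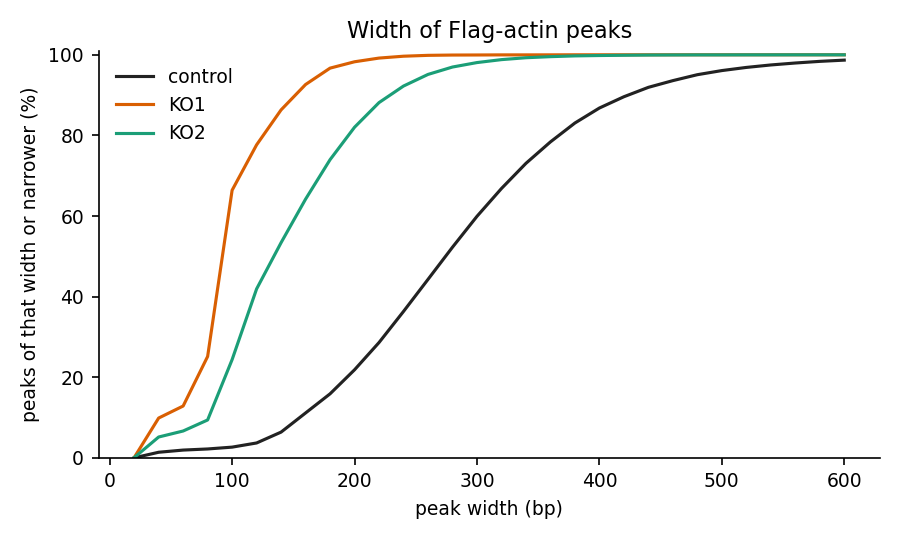
Cumulative share of kept Flag-actin peaks (percent) by peak width in bp, for control, KO1 and KO2. KO1 has 66.4% of its peaks at 100 bp or less, and the control line lies far to the right with a median of 280 bp.

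The rank of total signal separated control peaks by place more than the peaks of either KO list. In the control, split into 10 bins of rank, the gene-end share was 10.6% in the lowest bin (interval 9.51 to 11.7) and 15.6% in the highest (14.3 to 17.1). The share within 5 Mb of the outermost genes was 24.99% in the lowest bin and 45.7% in the highest, and the median width was 230 and 420 bp. In KO2 the highest bin had 10.1% at gene ends, 22.2% near the outermost genes and a width of 170 bp, against 8.37%, 19.6% and 130 bp in the lowest. In KO1 the highest bin had 6.49% at gene ends, 15.8% near the outermost genes and a width of 100 bp, against 6.01%, 11.7% and 100 bp in the lowest. Ties in total signal made the KO1 bins uneven, from 178 to 2860 peaks. In the control a gene-end peak stood at a median percentile of 56.4 of its list and a peak more than 50 kb from a gene at 43.7, while in KO1 these were 54.9 and 50.5 and in KO2 52.4 and 45.9. Without the IgG filter the order at gene ends in the top 10% by rank turned around: the KO mean was then 0.506 points above the control.

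**Figure D5:**
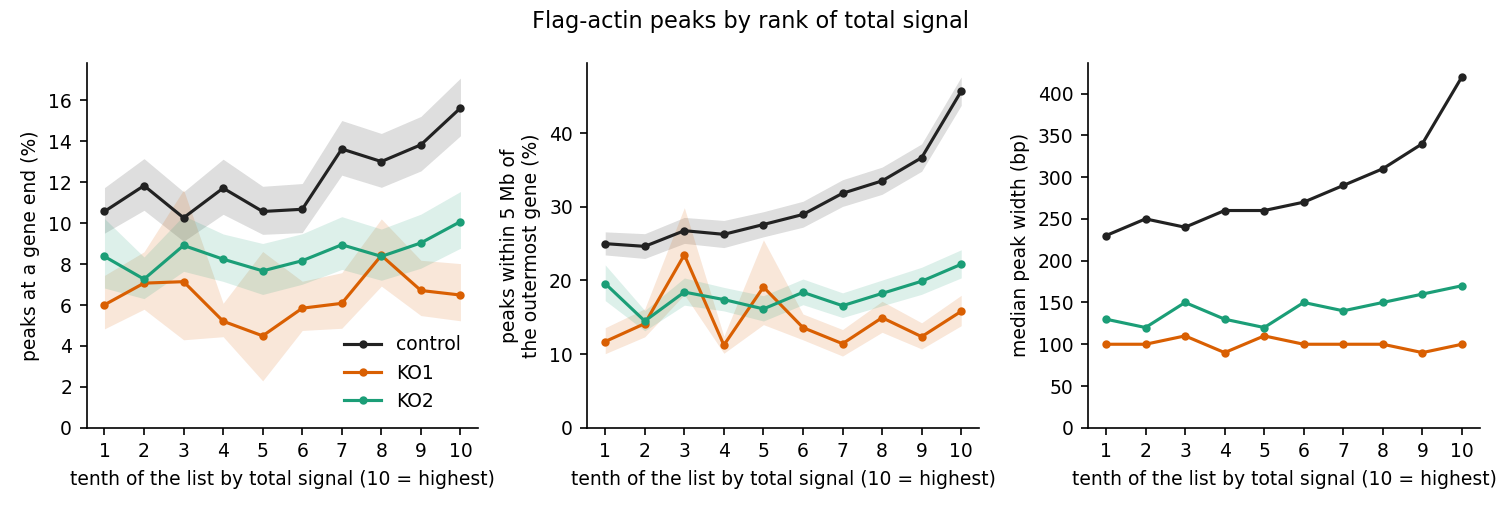
Flag-actin peaks in 10 bins of rank by total signal within a list (10 is the highest): share at a gene end, share within 5 Mb of the outermost gene (both in percent, bands are 95% Wilson intervals) and median width in bp, for control, KO1 and KO2. Control values climb to 15.6%, 45.7% and 420 bp in the highest bin, above both KO lists.

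Few positions were shared. A KO1 peak overlapped 2.62% of control peaks and a KO2 peak 4.84%, while 5.53% of KO1 peaks and 6.70% of KO2 peaks overlapped a control peak. Of KO1 peaks, 5.34% overlapped KO2, and of KO2 peaks 3.49% overlapped KO1; the control list is the longest and covers the most DNA. At equal length 3.78% of control peaks overlapped KO1 and 5.26% KO2. Of KO1 peaks, 3.82% then overlapped the control and 4.38% KO2, and of KO2 peaks 5.30% overlapped the control and 4.37% KO1. Peaks removed by the IgG filter were shared far more: without the filter, 33.0% and 35.4% of control peaks overlapped KO1 and KO2, and 53.7% of KO1 peaks overlapped KO2 while 47.6% overlapped the control. Shared control peaks ranked higher and were narrower than the others. Those shared with KO1 had a median percentile of 70.1 and a width of 150 bp, against 49.5 and 280 bp for the rest.

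Merging the lists gave 53748 regions. Of these, 23856 were in the control alone, 11083 in KO1 alone and 16867 in KO2 alone; the control with KO1 held 359, the control with KO2 925, both KO lists without the control 346, and all 3 lists 312. Regions in the control alone lay within 5 Mb of the outermost genes in 30.5% of cases, KO1 alone in 12.3% and KO2 alone in 16.8%. Regions of control and KO2 did so in 37.8% and regions of both KO lists in 13.3%. The 346 regions of both KO lists were small: in 232 the narrower peak spanned at most 50 bp, and in 44 it exceeded 100 bp. Among the 10 widest by the narrower peak were regions at FN3K, a fructosamine kinase gene, with KO1 and KO2 peaks of 230 and 240 bp, and at ZC3H3, a zinc finger gene, with 210 and 220 bp. Both lay inside their genes away from the ends, in the dense windows of chromosomes 17 and 8, and a control peak stood 1.74 and 0.920 kb away.

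By gene, a gene-end peak was present at 14.7% of the 19974 protein-coding genes in the control list (2930 genes), 4.06% in KO1 (810) and 8.32% in KO2 (1662). The control alone held such a peak at 2348 genes, 11.8%, and at equal length at 1320 genes, 6.61%. Both KO lists held one without the control at 85 genes, 0.426%, and at equal length at 61, 0.305%. All 3 lists held one at 59 genes, 0.295%. With or without the control, KO1 and KO2 both held one at 144 genes, 0.721%, so the KO lists also shared few genes with each other. Absence from 2 lists is easier to meet than presence in 2, so the 2348 and 85 are not alike as counts: against KO1 alone, 2723 genes had a peak in the control only and 603 in KO1 only, and against KO2 alone 2496 and 1228. In 24 of the 85 genes of both KO lists the KO peaks overlapped each other, and in the rest they lay at different points or at different ends of the gene. A gene near the end of a chromosome had a control peak more often: within 5 Mb of the outermost genes, 28.1% of 2711 genes had one in the control list, 5.20% in KO1 and 13.5% in KO2, and farther in 12.6%, 3.88% and 7.51%.

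The highest control peaks at genes without a KO gene-end peak were broad and of moderate height. They were picked by total signal, which adds up over the width of a peak, so the rule itself favours broad peaks. TMEM276, a transmembrane protein gene of chromosome 8, had a control peak of 1020 bp and 14 steps, and the nearest KO1 and KO2 peaks were 29.4 and 3.05 kb away. KRTAP10-4, a keratin-associated protein gene in a family of near-identical copies, had one of 1230 bp and 14 steps, with KO peaks 6.86 and 50.8 kb away. KIF19, a kinesin gene, had one of 490 bp and 29 steps, with KO peaks 72.1 and 3.38 kb away. CYP11B2, the aldosterone synthase gene, had one of 740 bp and 15 steps, with KO peaks 114 and 41.3 kb away. These 4 peaks were wider than any kept KO1 peak, which reached at most 370 bp. TONSL, a gene of replication fork repair, had a control peak of 820 bp, with a KO2 peak 0.620 kb from it. SAMD14 had a control peak of 810 bp, with KO1 and KO2 peaks 2.98 and 2.82 kb away. CERS1, a ceramide synthase gene that overlaps GDF1, had one of 880 bp, with KO peaks 10.1 and 9.60 kb away. The others were CTDP1, the phosphatase gene for the RNA polymerase tail, PSCA, a surface antigen gene, and LOC124905153, with control peaks of 700, 790 and 620 bp. At equal length 9 of these 10 genes were again among the top 10, with GDF1 in place of LOC124905153.

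Genes held by both KO lists and not the control had mostly narrow peaks. ZSCAN20, a zinc finger gene, had peaks of 60 bp and 32 steps in KO1 and of 30 bp and 36 steps in KO2, 3.55 kb from the nearest control peak. At TMEM44, whose promoter is printed above, the peaks reached 26 and 30 steps, and the nearest control peak was 8.41 kb away. ACOT12, an acyl-CoA thioesterase gene, had 30 and 70 bp with 22 and 38 steps, and the nearest control peak was 280 kb away. SSTR2, a somatostatin receptor gene, had 90 and 60 bp with 18 and 32 steps, 1.74 kb from a control peak. TBC1D3E, of a gene family with near-identical copies, had wider peaks of 260 and 140 bp, and ZNFX1, a helicase gene, had 90 and 180 bp. In these 6 genes the KO peaks overlapped. In ZMPSTE24, the protease gene for prelamin A, in ZMIZ1, a coactivator gene, in IRF1, an interferon regulatory factor gene, and in HSD11B2, the cortisol-inactivating enzyme gene, they did not, and the KO2 peak nearest to the KO1 peak, at any position, was 1.19, 19.9, 9.42 and 1.91 kb away.

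Genes of all 3 lists included peaks far higher than any of these. TBX4, a limb T-box factor gene, had maxima of 1414, 2034 and 2304 steps in control, KO1 and KO2, over 200, 30 and 120 bp. IQGAP1 had 1019, 1272 and 1417 steps, and CSH2, a placental lactogen gene with near-identical copies, had 426, 482 and 634. In steps the order was the same at the 3 genes, lowest in the control, but a step was of another size in each list. In deposited total signal the control was instead the highest at all 3. As the scaling is unknown, neither order compares height between lists. The Flag arm IgG list had no peak nearer than 2.70, 217 and 8.64 kb. Whether peaks of this height are occupancy at these genes or reads of another source, the construct included, was not tested. The next genes had lower peaks: GP1BB, a platelet glycoprotein gene, had 29, 14 and 11 steps over 410, 140 and 250 bp, and COL9A3, a collagen IX gene, had 60, 30 and 52 steps over 80, 30 and 30 bp. POTEH, SBK2 and GCGR completed the 10 with ACTG1 and ACTA1. In 28 of the 59 genes the control and KO1 peaks overlapped, and in 37 the control and KO2 peaks did.

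Of the actin genes, ACTG1 and ACTA1 had kept peaks in all 3 lists. ACTG1 had 2, 3 and 3 peaks in control, KO1 and KO2, with maxima at its end of 46, 71 and 90 steps over 300, 130 and 40 bp. ACTA1, the skeletal muscle actin gene, had 1, 3 and 2 peaks, with 37, 26 and 32 steps. ACTG2, a smooth muscle actin gene, had 1 control peak of 220 bp and 0 in either KO list, and ACTA2 and ACTC1 had 0 in all. ACTB, the beta-actin gene, had 0 after the filter in every list because each of its 5, 5 and 4 peaks overlapped an IgG peak, and each IgG list held 5 there. Of the 312 regions of all 3 lists, 12 (3.85%) lay at 50 actin pseudogenes, ACTBL2 and POTE genes, against 4 of 23856 regions of the control alone. Sequence shared among these copies makes the place of such reads uncertain. The actin-related subunits of remodelling complexes were almost empty after the filter: ACTL6A and ACTR8 had 0 kept peaks in all lists, and ACTR5 had 1, in KO2. Before the filter ACTL6A had 1 peak in each of the 3 lists and ACTR8 had 1 in KO2, all of which overlapped an IgG peak. Over all 26 actin and actin-related genes, 5, 2 and 3 had a gene-end peak. In kept peaks, not limited to gene ends, SMARCA4, the BRG1 gene, had 5, 0 and 2, and SETD3 had 1, 0 and 3. Before the filter SMARCA4 had 5, 0 and 3 and SETD3 had 2, 3 and 11, and the Flag arm IgG list held 8 peaks at SETD3. The SETD3 counts are no check of the knockout.

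Gene families were read against the share of all genes with a gene-end peak, 14.7%, 4.06% and 8.32% in control, KO1 and KO2. At equal length these shares were 8.13%, 4.06% and 5.70%. Among collagens, the fibre and matrix proteins, 18 of 44 genes had such a peak in the control list (40.9%), 3 in KO1 and 4 in KO2. At equal length the counts were 13, 3 and 4. COL6A2, COL8A2, COL6A1 and COL1A1 led in the control. Of collagen genes, 22.7% lay within 5 Mb of the outermost genes, against 13.6% of all genes. Their median length was 145 kb, against 24.2 kb. Among potassium channel genes the counts were 26, 8 and 9 of 96, led by KCNH6 and KCNJ2, and among HOX genes of body patterning 9, 3 and 4 of 40. T-box genes had 5, 1 and 3 of 14. Keratin-associated protein genes of hair had 15, 1 and 3 of 94. Olfactory receptor genes had 11, 7 and 11 of 392, under the share of all genes in each list.

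Families of housekeeping function lay near the background. Cytosolic ribosomal protein genes had 14, 4 and 10 of 84, mitochondrial ribosomal protein genes 11, 5 and 5 of 77, and translation initiation factor genes 7, 4 and 5 of 55. Solute carriers had 67, 19 and 34 of 386. Zinc finger (ZNF) genes had 44, 16 and 31 of 517, below the background in the control. Of adhesion genes, integrins had 5, 0 and 1 of 30, with ITGB4 and ITGA5 among the 5, claudins 4, 2 and 2 of 24, and protocadherins 3, 1 and 3 of 65. Replication-dependent histone genes had 7, 0 and 1 of 74, kinesins 6, 2 and 2 of 39, keratins 6, 5 and 4 of 55, and defensins 0, 0 and 3 of 45. Apart from the defensins in KO2, none of these families had more genes with a peak in a KO list than in the control; at equal length zinc fingers also had more in KO2 (22 against 20) and olfactory receptors in KO1 (7 against 6). These counts are presence in a list and depend on its length, and they were not tested.

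Marker genes did not set the cells apart in these lists. Of 10 colon epithelium markers, CDH1, the E-cadherin gene, had a control gene-end peak and none had a KO peak. Markers of other tissues had control peaks as well: 3 of 5 neuron genes (TUBB3, RBFOX3 and SNAP25), 2 of 5 liver genes, 1 of 5 fibroblast genes and 1 of 6 immune genes, and no KO peak. Of all genes, 14.7%, 4.06% and 8.32% had a gene-end peak in control, KO1 and KO2. In sets of 5 to 10 genes at those KO shares, the lack of a KO peak says little. TUBB3 and RBFOX3 lie in windows that are among the 10 fullest in the control.

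BRG1 lists, filtered in the same way, differed between control and KO in part in the same direction. Their gene-end share was 20.6% in the control list, 11.5% in KO1 and 18.2% in KO2, and the median width was 210, 90 and 110 bp. Within 5 Mb of the outermost genes lay 11.3%, 8.09% and 9.66% of BRG1 peaks. The KO1 and KO2 shares there differed from the BRG1 control by -3.19 and -1.62 points, and for Flag-actin from its control by -17.5 and -12.8 points. Inside genes these differences were 3.00 and -0.262 points for BRG1 and -6.69 and -4.98 points for Flag-actin. A BRG1 control peak overlapped 4.96% of Flag-actin control peaks, 6.26% of KO1 peaks and 6.13% of KO2 peaks. A BRG1 peak of the same KO overlapped 1.33% of Flag-actin KO1 peaks and 2.46% of KO2 peaks. Those BRG1 lists were shorter, at 6789 and 12782 peaks against 33596 in the BRG1 control. These differences between the antibodies were not tested.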

How the data were processed

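CUT&RUN peak lists of HCT-116 cells were analysed: Flag-actin in 1 control and 2 SETD3 KO libraries, with 2 IgG lists used as a filter and 3 BRG1 lists for comparison. The authors deposited 1 list per library, with the total signal (column 4) and maximum signal (column 5) of each peak in the 6-column layout of the peak caller SEACR. The submitters' processing notes give hg38 as the build and name BWA, SAMtools, SEACR and MACS2, deepTools, FastQC 0.12.0, Trim Galore 0.4.5 and bedtools 2.30.0; order, settings and the scaling of the signal are not given in the sources used here, and read depth is not known. List names carry a stringent threshold of 0.01, or 0.005 for IgG, which helps set list length.

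Overlaps, distances and ranks used Python 3.11.15, numpy 2.4.6, pandas 2.3.3 and scipy 1.17.1, and the interval functions were tested on 20000 simulated intervals against bedtools 2.31.1, with 0 disagreements. Genes were 19974 protein-coding genes of the RefSeq gene table (GRCh38.p14), which gives no strand or exons. Every maximum below 200 steps was a whole number of steps within 0.05. Named genes followed rank rules: the 10 genes with the highest control signal and no KO gene-end peak, the 10 with the highest mean percentile in both KO lists or in all 3, the same at equal length, the 10 widest regions of both KO lists, the 10 fullest windows, and actin genes. Members and lists were chosen with earlier results of these data known. No test was made. Alternatives changed list length, threshold, IgG filter, width, windows, ranking, overlap and the KO libraries used.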

Additional observations from a re-analysis of the deposited data

Results flagged for a closer look

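Peaks outside chromosomes 1 to 22 and X were in none of the comparisons. They held 5.42% of the summed total signal of the deposited Flag-actin control list and 4.41% of the KO2 list. Both were above the IgG lists, at 4.29% for the Flag arm list and 3.92% for that of BRG1, and KO1 held 3.84%. By number of peaks the same contigs made up 3.10% of the control list, 3.67% of KO1, 3.39% of KO2 and 4.72% of the Flag arm IgG list. In the control, chromosome Y held 1.89% of the signal, alternate contigs 2.02%, unlocalized contigs 1.06% and unplaced contigs 0.451%. In the Flag arm IgG list these were 1.35%, 2.10%, 0.584% and 0.252%.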

How the results depend on the processing

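Of 46 differences of the KO mean from the control, main values and alternatives together, 45 were below 0. The exception was the gene-end share in the top 10% by total signal without the IgG filter, at 0.506 points. In the top 10% of the control list without the filter, 99.9% of peaks overlapped KO1 and 99.9% KO2, against 7.40% and 12.6% with it. The cause of the exception was not tested. With the filter that difference was -7.35 points by total signal and -3.89 by maximum signal. The gene-end difference, -4.80 points, was -8.22 with a 3 kb window, -0.658 for the promoter windows and -1.32 among peaks over 200 to 400 bp. The difference in median density, -4.5 genes, was -5.5 at equal length, -3.5 without the IgG filter, -3.5 for peaks wider than 100 bp, -1 within 100 kb, -1 among peaks over 200 to 400 bp, -2.5 without the outer 5 Mb and -3.5 without chromosomes 8, 16 and 17. The last 3 kinds of restriction were chosen after seeing the data. The mean share of control peaks with a KO peak, 3.73%, was 34.2% without the IgG filter and 1.92% for peaks wider than 100 bp. Genes of the control alone, 2348, numbered 1320 at equal length and 1453 in the top 50% of each list. Genes of both KO lists and not the control, 85, numbered 30 in the top 50%, 135 without the IgG filter and 36 for peaks wider than 100 bp.

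With 1 KO library left out, the ranges were -5.90 to -3.70 points at gene ends, -5 to -4 genes, -190 to -140 bp in width, -9.14 to -5.55 points in the top 10%, 2.62% to 4.84% of control peaks shared, 2496 to 2723 genes of the control alone and 603 to 1228 genes of the KO alone, which then need 1 list. No paired analysis was possible because the control has 1 library and no test was made.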
